A study of Drosophila melanogaster with 800 samples.

Results

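The genes described here are the nuclear genes of the mitochondrial respiratory chain and ATP synthase in the fruit fly Drosophila melanogaster. They were taken from the expression table by FlyBase symbol: every gene whose symbol starts with ND-, is SdhA, SdhB, SdhC or SdhD (with or without a suffix), or starts with UQCR, with COX and a digit, or with ATPsyn. This rule found 87 of 35014 features, of which 17097 carried FlyBase gene identifiers and 16733 of those matched a symbol. The letter L marks copies named after another subunit gene, and 21 symbols end in it. ND-MNLL ends in L but has no counterpart of the shorter name, and ND-51L1, ND-51L2, COX6AL2 and COX7AL2 carry a digit after the L, so 24 genes were counted as paralogs with a counterpart and 63 as other subunit genes. By annotated synonyms, the counterpart of COX6AL and COX6AL2 is levy, that of COX6CL is cype and that of ATPsynepsilonL is sun.

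RNA came from whole flies of the DGRP, 200 inbred lines that form a panel of sequenced lines founded from wild flies and brought to near homozygosity by 20 generations of full-sib mating. All flies were mated, 3 to 5 days old and reared at 25 °C, and the labels give no treatment. Each line gave 2 replicate libraries of females, from pools of 25 flies, and 2 of males, from pools of 30 flies, which makes 400 libraries per sex and 800 in all. Values are FPKM (fragment counts divided by exon length and by library size) on a log2 scale, made from stranded RNA depleted of ribosomal RNA.

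Respiratory complexes I to IV pass electrons from NADH and succinate to oxygen. Complexes I, III and IV also pump protons across the inner mitochondrial membrane, and complex V, the ATP synthase, uses that gradient to make ATP. Complex I (ND-) takes electrons from NADH, complex II (Sdh) is also an enzyme of the citric acid cycle, complex III (UQCR) passes electrons to cytochrome c, and complex IV (COX) reduces oxygen. Most subunits are encoded in the nucleus and used in nearly all cells, with much expression in flight muscle. In Drosophila several subunits also have duplicate genes with expression in the testis, where the mitochondria of the developing spermatid fuse and elongate along the sperm tail.

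The inferred depth of a library was 7.27 to 30.6 M reads (megareads). Its median was 11.6 M for females and 11.4 M for males. Depth was read from the steps between low values, and its absolute size rests on annotated exon lengths, so totals and the read counts given below hold only as far as that inference does. All 800 libraries held distinct values, and replicate libraries of a line and sex correlated across genes with a median of 0.964. The sexes matched their labels: all 16 late testis markers and all 7 accessory gland markers were higher in males, and 10 of the 11 ovary markers found were higher in females. Late testis markers summed to 4.14 FPKM in the median female library and 7333 FPKM in the median male library, and 5 of the 16 were at a median of 0 in females. In 2 female libraries, replicate 1 of line 158 and replicate 2 of line 397, these markers summed to 116.9 and 104.6 FPKM, and their sister libraries gave 11.8 and 3.52 FPKM. The median gene tested was 0.51 lower in females than in males on the log2 scale, and that shift lies under every difference between the sexes given below.

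RNA of the paralogs was found mostly in males. Of the 24 paralogs, 23 were called higher in males, and the exception was COX7AL2, which had the same direction but fell just short of the 1 log2 unit required. Across the 23, the mean FPKM of males was 6.97 to 957 times that of females, with a median of 439, and 16 of the 23 exceeded 100-fold. Median levels in males lay between 8.56 and 149.8 FPKM, while 11 of the 24 had a median of 0 reads in females. By contrast, 1 of 62 other subunit genes tested was called higher in males and 0 were called higher in females. In whole flies, fewer cells of a type and less RNA per cell cannot be told apart.

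A call required an adjusted p below 0.05 (limma over 200 line differences, Benjamini-Hochberg over 15447 features) and a difference of at least 1 log2 unit. Over all features tested, 37.2% were called higher in males and 20.8% higher in females. After each library was centred on its median, the counts over all features went from 5749 male-higher and 3215 female-higher to 4040 and 4738, while the counts for paralogs and other subunit genes were as before. Because 20 of the 24 paralogs reached the expression filter in males only, a difference toward males was built into their entry, and their count describes the set and is no separate evidence. For 18 of the 24 paralogs every male library was above every female one, as it was for 12.4% of all features tested. The overlap of SdhAL, ND-20L and UQCR-6.4L came with a male line at or near 0, described further on.

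COX4L, a copy of the cytochrome c oxidase subunit COX4, had the highest level of the 23 in males. It ranged from 0 to 2.17 FPKM with a median of 0.284 in females, and from 58.6 to 238 with a median of 149.8 in males. The lowest male library was far above the highest female library, and the mean was 439 times higher in males. On the log2 scale the difference, female minus male, was -10.06 (SE 0.156, adjusted p = 1.92e-135, male higher in 200 of 200 lines). ATPsynGL, a copy of ATP synthase subunit g, had the widest ratio: a mean of 0.0508 FPKM in females, with 297 of 400 libraries at 0, against 48.6 FPKM in males. These log2 differences depend on the pseudocount of 0.001 FPKM in the deposited values. With a pseudocount of 1 FPKM, COX4L gave -6.82 and ATPsynGL -5.52 in place of -13.60.

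The calls covered every complex. All 6 paralogs of complex I, all 3 of complex II and all 3 of complex III were called higher in males. So were 7 of 8 of complex IV and all 4 of complex V. Of the paralogs, 1 in complex III and 3 in complex IV reached the filter in females, and 0 in complexes I, II and V. For most of them a difference toward males was thus built into their entry, and these counts only describe the set. In complex II, SdhAL, SdhBL and SdhCL copy the flavoprotein, the iron-sulphur protein and a membrane anchor, and SdhD alone had no L copy under the rule. Their male medians were 25.0, 44.1 and 44.1 FPKM, and the highest female libraries held 0.520, 0.478 and 1.69 FPKM. The lowest male levels among the paralogs belonged to ATPsynbetaL, a copy of the catalytic subunit of the ATP synthase, and to ATPsynepsilonL, at medians of 8.56 and 9.36 FPKM.

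**Figure D1:**
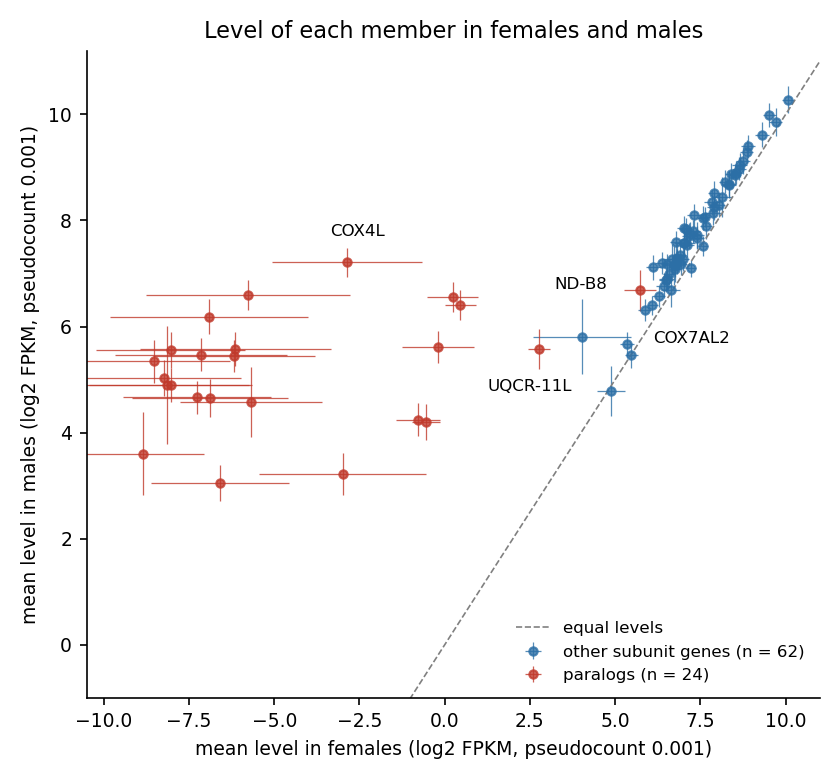
Mean level of each member in females (x axis) against males (y axis), in log2 FPKM with a pseudocount of 0.001, with bars of 1 SD over 200 lines. The 62 other subunit genes follow the line of equal levels a little above it, the paralogs lie far to the left of it, and COX7AL2 sits among the other subunit genes.

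COX7AL2, a copy of COX7A, was the paralog least like the rest. Its libraries ranged from 10.5 to 134 FPKM in females, with a median of 54.7, and from 34.7 to 268 in males, with a median of 105.0. The ranges overlapped widely, and the mean of males was 1.93 times that of females. The log2 difference was -0.97 (SE 0.034, adjusted p = 9.48e-73, male higher in 195 of 200 lines), and with replicate 2 alone it was -1.13, past the required unit. Its female libraries held 272324 reads in all. It was the 1 paralog of 24 that the sexes shared at levels within 2-fold of each other.

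UQCR-11L, a copy of a small complex III subunit, was the next most expressed in females. Female libraries ranged from 2.57 to 13.1 FPKM with a median of 6.84, and male libraries from 4.87 to 88.7 with a median of 48.7. The ranges touched only through the lowest male libraries, which came from line 890. The difference was -2.81 (SE 0.034, adjusted p = 1.35e-156), with males higher in 199 of 200 lines and the reverse, +0.25, in line 890. Besides these, 5 more paralogs had a median of at least 0.5 FPKM in females: COX5BL, COX7CL, COX6AL, ND-51L1 and ND-51L2. COX5BL had a median of 1.42 FPKM in females against 85.0 in males, and all its exon bases lie opposite those of Trmt6, so its reads and those of Trmt6 cannot be told apart unless the counting used strand, which is not given in the sources used here.

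Some female lines carried a paralog that was near 0 in the others. In females of line 280, COX6CL, a copy of the cytochrome c oxidase subunit cype, stood at 11.3 and 14.97 FPKM (84.1 and 70.1 reads), while the next line reached 2.86 and the median line 0.0833. Both replicates were high, the line's males were at 107 and 120 FPKM, and late testis markers in these female libraries summed to 1.76 and 8.21 FPKM. ATPsynepsilonL stood at 8.70 and 6.71 FPKM in females of line 227, against 3.10 in the next line and a median line of 0.290. In that line the males, at 9.70 and 8.52 FPKM, were hardly higher than the females. ND-51L2 in line 821 (3.29 and 2.66 FPKM, next line 1.68) and ND-51L1 in line 911 (3.02 and 3.19 FPKM, next line 1.48) were also highest in both female replicates. In lines 158 and 397 the paralogs were raised in the libraries with high late testis markers and not in their sister libraries: COX7AL, for example, had 1.75 and 0.170 FPKM in the replicates of line 158, and SdhCL 0 and 1.69 FPKM in those of line 397. Without lines 158 and 397 the counts of called members were the same, 23 paralogs and 1 other subunit gene.

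The other subunit genes differed little between the sexes, and all 62 tested were above 0 in every library apart from 3 female libraries without reads of ND-B8. Of 62 tested, 61 had an adjusted p below 0.05, as did 98.3% of all features, and 58 had the higher level in males. The difference had a median of -0.39 and ranged from -1.79 to 0.11 on the log2 scale. That median is smaller than the general shift, and after centring of the libraries it became +0.15, with 49 of 62 genes on the female side. Of 62, 1 remained male-higher after centring. The 11 X-linked genes tested had a median of -0.39, as did the autosomal ones.

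On the deposited scale the median difference varied between complexes. It was -0.79 for the 4 genes of complex II, -0.48 for 6 of complex III and -0.44 for 33 of complex I. For 8 of complex IV it was -0.36, and for 11 of complex V -0.27. After centring of the libraries, complex II alone had a median on the male side, -0.25, with 1 of its 4 genes on the female side. The centred medians were +0.06 for complex III, +0.10 for complex I, +0.18 for complex IV and +0.27 for complex V. SdhB, the iron-sulphur subunit of complex II, ranged from 40.6 to 129 FPKM with a median of 69.4 in females, and from 81.6 to 218 with a median of 138.9 in males. The ranges overlapped, but the male level was higher in all 200 lines, by 0.99 on the log2 scale (SE 0.017, adjusted p = 1.93e-126). The 3 other subunits differed by -0.81 (SdhD), -0.78 (SdhA, the flavoprotein) and -0.54 (SdhC), so the mean levels of males were 1.45 to 1.99 times those of females. In complex III, UQCR-Q stood at -0.84 and UQCR-11 at -0.06. In complex IV, COX4 stood at -0.50 and COX7A at +0.11. In complex V, ATPsynB stood at -0.44 and ATPsyndelta at +0.02 (adjusted p = 0.136), the 1 gene without a significant difference. In complex I, the extremes were ND-B8 and ND-AGGG (+0.10).

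ND-B8, an accessory subunit of complex I, was the 1 other subunit gene called. Its female libraries ranged from 0 to 60.8 FPKM with a median of 18.4, and its male libraries from 0.751 to 144 with a median of 58.1. The ranges of the sexes overlapped, yet within lines the male was higher in 200 of 200. The difference was -1.79 (SE 0.064, adjusted p = 2.06e-70), and it was -1.25 after centring of the libraries. ND-MNLL was listed at 0 in all 800 libraries. All its 720 annotated exon bases lie within exons of CG45089 on the same strand, so that 0 is no measure of its expression.

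Genes of the same pathways under other names were taken as separate lists. Of 11 such subunit, carrier and assembly genes, 10 were found, of which 0 were male-higher and 1 was female-higher, Scox (+1.12), which delivers copper to complex IV. Surf1, another complex IV assembly factor, came next at +0.96, while RFeSP, the Rieske protein of complex III, was at -0.62 and blw, the alpha subunit of the ATP synthase, at -0.32. A further list was drawn up as testis or late copies under other symbols, so its direction was partly set by that choice. All 3 of 3 found were male-higher: Cyt-c-d, a cytochrome c of the male germ line, at -10.46, Cyt-c1L at -7.42 and the ADP/ATP carrier Ant2 at -4.92. Cyt-c-d and Cyt-c1L reached the expression filter in males only. Of 9 citric acid cycle genes found, 0 were called, and their median was -0.62. The mitochondrial ribosomal proteins went the other way, with 47 of 70 tested called female-higher and a median of +1.22. Cytosolic ribosomal proteins summed to 93415 FPKM in the median female library and 37722 in the median male library, and their part in the levels of the other genes, which share the same total, was not tested.

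In males, each paralog was less abundant than its counterpart, but several reached a comparable level. The counterpart had the higher mean in 24 of 24 pairs and was higher in all 200 lines in 21 of them. The paralog held a median of 13.7% of the summed FPKM of the pair, from 0.666% for ATPsynbetaL to 43.4% for COX7AL2. In females the share was below 1% in 22 of 24 pairs, the exceptions being UQCR-11L at 6.38% and COX7AL2 at 26.6%. These levels are per exon length.

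COX7A, a small subunit of complex IV, had 2 copies near its own level in males. COX7A had a mean of 7.10 on the log2 FPKM scale, COX7AL2 of 6.68 and COX7AL of 6.60, with differences from COX7A of -0.42 (SD over lines 0.35) and -0.50 (SD 0.31). COX7AL2 exceeded COX7A in 21 of 200 lines and COX7AL did so in 5. The other pair with a line of reversed order was UQCR-11L and UQCR-11, at a difference of -1.12 (SD 0.50) and with the paralog higher in 1 line. COX4L (-1.53, SD 0.37), SdhBL (-1.66, SD 0.39), COX7CL (-1.71, SD 0.39) and ND-B14.5AL (-1.87, SD 0.41) held between 21.5% and 25.6% of their pairs. At the other end, ATPsynbetaL was 7.23 below ATPsynbeta and ATPsynepsilonL was 5.71 below sun.

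A relation between the level of a paralog and that of its counterpart across lines was found for 1 of 24 pairs. Over 24 pairs, Pearson's r across the 200 male line means ranged from -0.142 to 0.439 with a median of -0.0412. Only COX7AL2 and COX7A passed the correction over the 24 pairs, with r = 0.439 and Spearman's rho = 0.446 (permutation test with 100000 permutations, adjusted p = 0.00024 for each), and r was 0.473 without the 2 farthest lines. The raw p of 1e-05 is the smallest these permutations can give. That relation was not particular to the pair. In males COX7AL2 had a median r of 0.630 with the 62 other subunit genes, with a lower quartile of 0.548. COX7A had a median r of 0.386 with the rest of the other subunit genes.

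Most paralogs had fewer exons than their counterparts. By the annotation, 18 of 24 had fewer, 5 had as many and 1 had more, and 6 were single-exon genes. For comparison, 4218 of the 17097 features with FlyBase gene identifiers had 1 exon and 2537 lay on the X. SdhAL has 1 exon where SdhA has 5, and ND-24L and ND-51L1 have 1 where ND-24 and ND-51 have 4. Of the 21 distinct counterparts 5 lie on the X chromosome and 2 on chromosome 4, while 1 of 24 paralogs, SdhBL, lies on the X, and 7 lie on the arm of their counterpart. The gene with more exons is COX6AL2, which shares 67.0% of its exon bases with Ir75d on the same strand, so its counts may include reads of that gene.

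**Figure D2:**
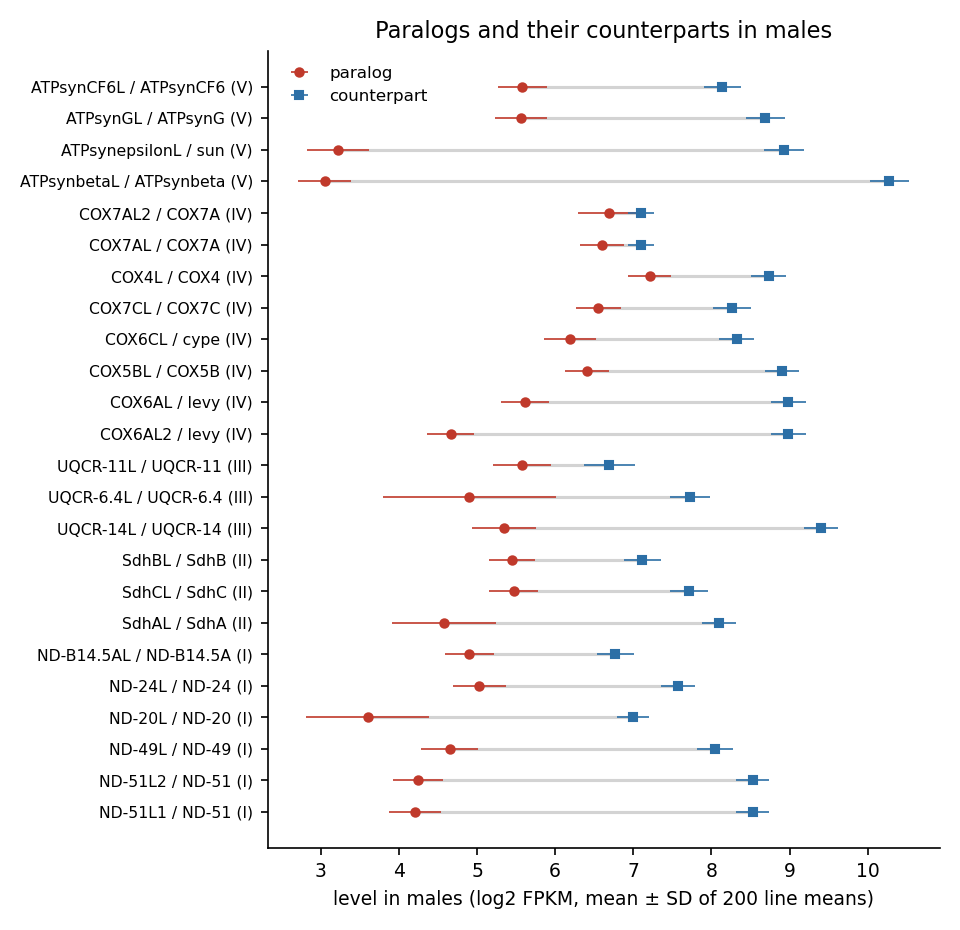
Level of each paralog (circle) and its counterpart (square) in males in log2 FPKM, as mean and SD of 200 line means, grouped by complex. Every circle lies to the left of its square, by 0.42 for COX7AL2 up to 7.23 for ATPsynbetaL.

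Lines differed in nearly all members, but by little in the other subunit genes and by more in the paralogs. In males, all 24 paralogs were called for variation between lines, with a median broad-sense heritability (the share of variance lying between lines) of 0.725. Of the 62 other subunit genes, 60 were called in males with a median of 0.380, and 55 in females with a median of 0.272. Over all features tested, 92.2% were called in females with a median of 0.553, and 89.6% in males with a median of 0.510, so the median of the other subunit genes lay below that of all features and the median of the paralogs above it. The size of that gap depended on scaling: after centring of the libraries the female median was 0.412 for the other subunit genes and 0.540 for all features, and the male median was 0.470 and 0.561.

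For the other subunit genes the median SD between lines, on the log2 scale, was 0.127 for females and 0.165 for males, while the SD between replicate libraries was 0.211 and 0.212. The lines thus differed by less than the replicates did. In the females the replicate number itself carried a difference: over the 62 genes, replicate 1 was 0.14 higher than replicate 2 (SD over lines 0.20), in 153 of 200 lines, against -0.02 in males, in 98 of 200. For the paralogs in males the SD between lines was 0.294 and between replicates 0.199. In females 4 paralogs could be tested, and 2 of them, COX7AL2 (0.391) and UQCR-11L (0.378), were called.

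The members with the highest heritability were not the most abundant. ND-B8 led the other subunit genes at 0.825 in females and 0.834 in males, followed by ATPsynE, subunit e of the ATP synthase, at 0.712 and 0.774. ATPsynE line means ranged from 7.27 in line 535 to 8.73 in line 732 in females, and from 7.26 in line 517 to 9.08 in line 737 in males, on the log2 scale. Next came ND-42 in females (0.640) and ND-B14 in males (0.709), both accessory subunits of complex I. At the low end, 3 of the other subunit genes had 0 in females: ND-18 and ND-B15 (0.117 and 0.223 in males) and a gene of complex III. ND-AGGG had 0.0671 in females and 0.0129 in males, and ND-15 had 0.0967 in males but 0.405 in females. COX7AL2 had the lowest value of the paralogs in males, 0.179, and UQCR-6.4L the highest, 0.957, which rested on 1 line.

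**Figure D3:**
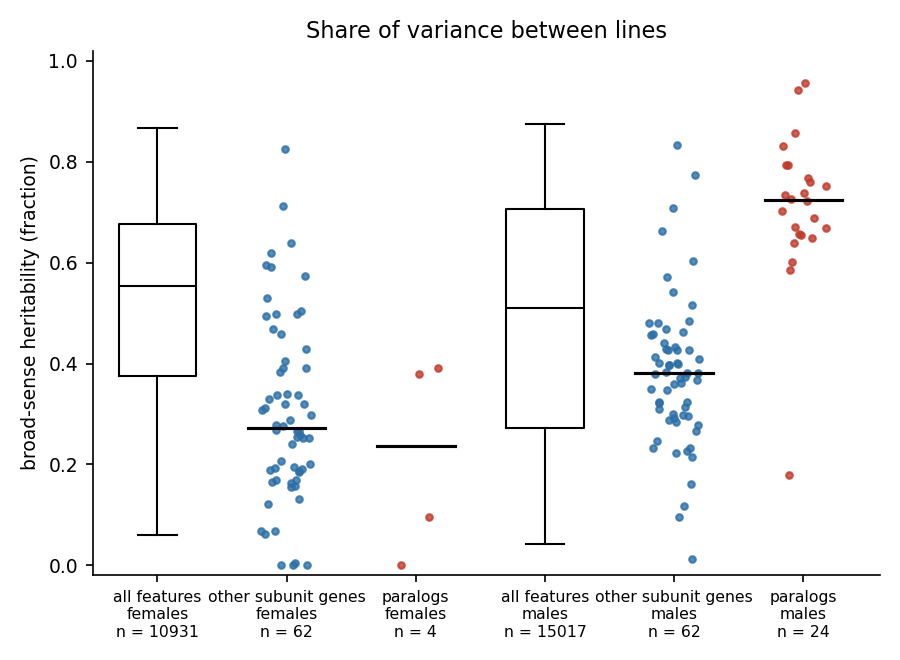
Broad-sense heritability (fraction) of each tested member in females and males, with boxes for all features (line at the median, box at the quartiles, whiskers from the 5th to the 95th percentile) and bars at the medians of members. The male paralogs have a median of 0.725 and lie above the box median of 0.510, except COX7AL2 at 0.179, and the other subunit genes lie mostly below it.

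Single lines held almost no RNA of a member that all other lines expressed. UQCR-6.4L, a copy of a small complex III subunit, had 0 reads in both male libraries of line 40. In the 199 other lines its mean lay between 3.97 and 5.73 on the log2 FPKM scale, and the median line was at 5.00. The female libraries of line 40 held 1 and 2 reads of it, where most female libraries held 0. UQCR-6.4L lies within Mipp1 on the opposite strand, and Mipp1 was itself lowest of all lines in males of line 40, at 4.80 against a median of 6.12. Without line 40 the heritability of UQCR-6.4L fell from 0.957 to 0.607.

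SdhAL was nearly absent in males of line 705, with 2 and 3 reads (-3.88 and -3.42 on the log2 scale) against a median line of 4.62 and a next lowest line of 3.09. Line 705 also had the highest variant density in SdhAL of the 200 lines, 8.23 against a median of 2.07 on the deposited log2 scale. Without this line the heritability of SdhAL was 0.762 in place of 0.942. ND-20L, a copy of a core complex I subunit, had 0 and 1 read in males of line 325 against a median line of 3.67. Its heritability was 0.587 without that line and 0.753 with it. Line 325 was also the lowest line for the paralogs as a set, at 1.28 below the mean of lines, but ND-20L was far lower than the set. That set value includes ND-20L itself, whose near-floor value lowers it.

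ND-B8 was the only other subunit gene with such a line. In line 627 it had 0 reads in both female libraries, and 4 and 9 reads in the male ones (-0.41 and 1.04), against median lines of 4.22 in females and 5.82 in males. Line 227 came next in females, with -0.61 in replicate 1 and 0 reads in replicate 2, and in males, at 3.86. Gs1l, which overlaps 15.4% of the exon bases of ND-B8 on the opposite strand, stood at 5.89 there in females against a median of 5.73, and at 5.04 in males against a median of 5.56, where 12 of 200 lines were lower. Heritability without line 627 was 0.690 in females and 0.780 in males, so wide line differences remained among the 199 others.

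**Figure D4:**
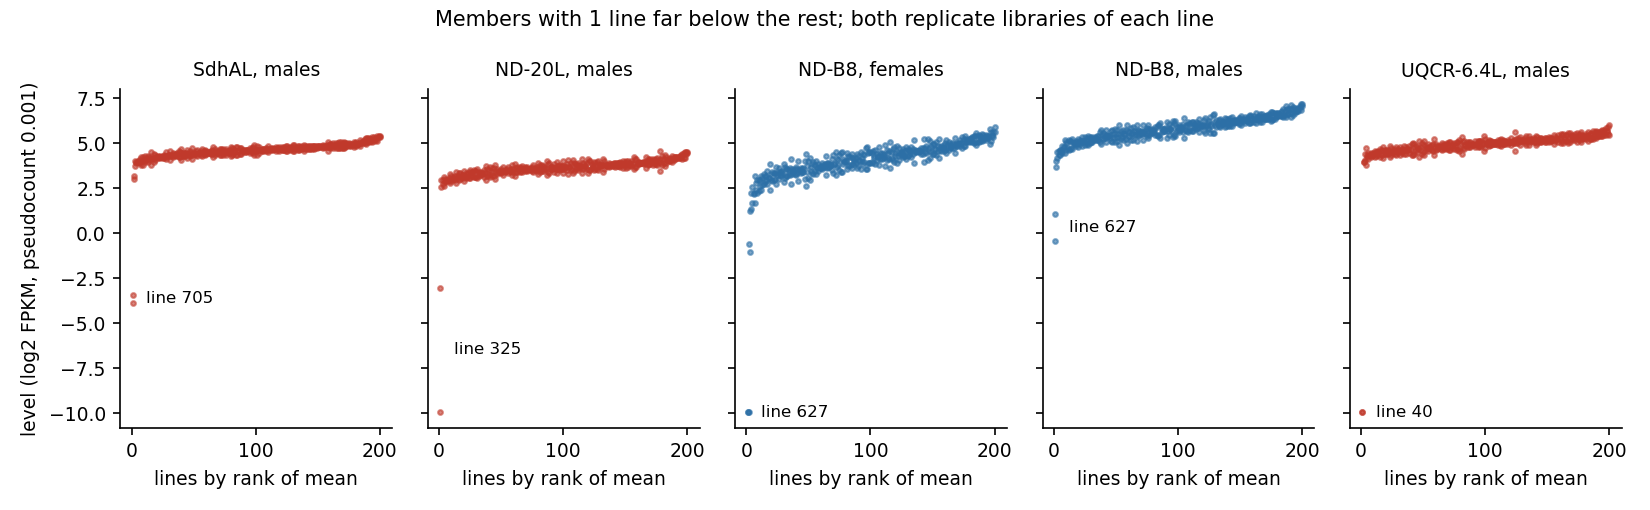
Level in both replicate libraries of each of the 200 lines, ordered by line mean, for the 5 cases of a member and sex with a line more than 2 log2 units below the next (log2 FPKM with a pseudocount of 0.001, so that the floor of the axis is 0 reads). Both replicates of the labelled line lie below the rest in each panel, except that replicate 2 of line 227 also had 0 reads of ND-B8 in females.

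Across lines the other subunit genes rose and fell together, and the paralogs formed a separate set. Between pairs of other subunit genes, the median r over the 200 line means was 0.658 for females and 0.675 for males, whereas it was 0.00902 and 0.0201 for pairs among 1000 features taken at even ranks of level. Pairs within a complex had medians of 0.613 and 0.659, and pairs between complexes of 0.679 and 0.687. Pooled over complexes, pairs within a complex were thus no closer than pairs between complexes. Most of the pairs within a complex came from complex I, with 33 genes tested, so their median mainly describes that complex. Medians for each complex alone are not given here. Among the paralogs in males the median was 0.572, and between paralogs and other subunit genes it was -0.0248. These are descriptions: line means of different genes come from the same libraries, and for the other subunit genes the SD between lines was below that between replicates. The part of shared library deviations in these correlations was not tested.

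COX7AL2 again went with the other subunit genes. Its median r with them was 0.630 in males and 0.596 in females, and with the other paralogs it was -0.0108. Without it, the median among paralogs was 0.606. COX5BL (0.750), COX4L (0.741), COX7CL (0.723) and COX7AL (0.714), all of complex IV, had the highest medians with the rest of the paralogs, and UQCR-6.4L (0.219) and SdhAL (0.372), each with a line near 0, the lowest after COX7AL2. Among the other subunit genes ATPsynO (0.796 in females, 0.812 in males) and COX7B (0.804 and 0.795) had the highest medians, and ND-B8 (0.0834 and 0.233) and ND-AGGG (0.121 and 0.242) the lowest. With the mitochondrial ribosomal proteins, which help to make the mitochondrially encoded subunits, the median r between single genes was 0.0915 in females and 0.330 in males, and r of the means of both sets was 0.153 in females and 0.705 in males.

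**Figure D5:**
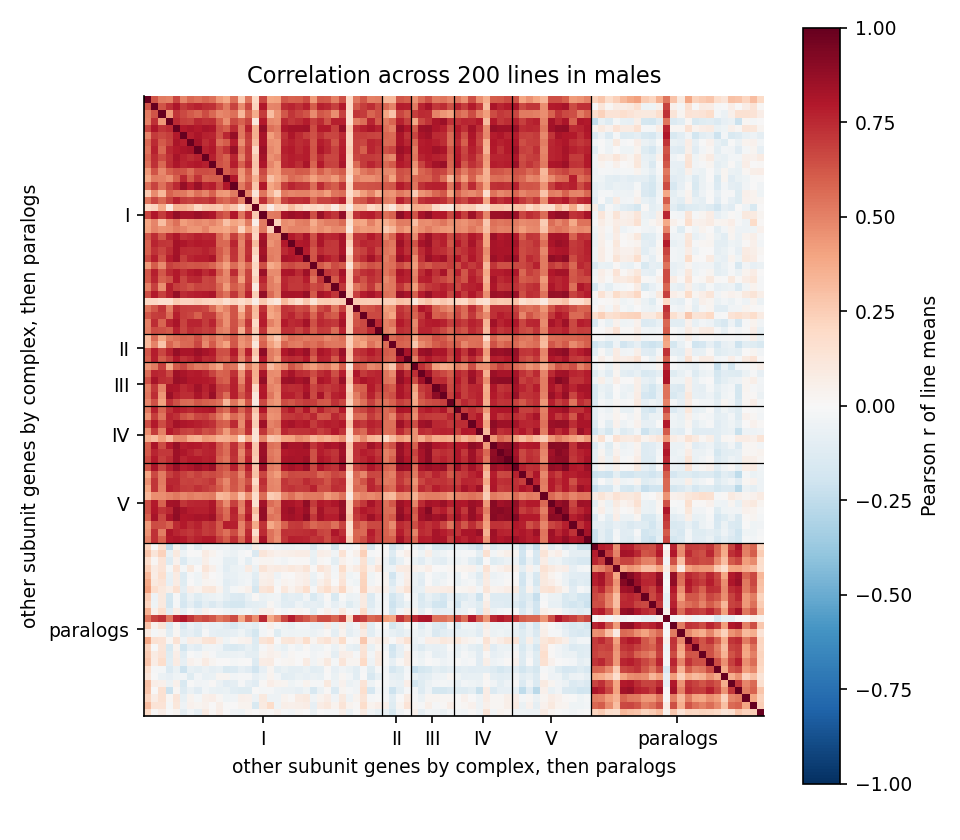
Pearson's r of male line means for each pair of members (colour scale from -1 to 1), ordered by complex with the paralogs last. The block of other subunit genes has a median of 0.675 and that of paralogs 0.572, with -0.0248 between them. The row that crosses this border is COX7AL2, and the pale rows within complex I are ND-B8 and ND-AGGG.

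Marker genes moved with both sets. The mean of the paralogs in males followed the late testis markers over the 200 lines (r = 0.824, rho = 0.872, r = 0.848 without the 2 farthest lines) and the meiotic arrest genes, which switch on spermatocyte transcription (r = 0.797, rho = 0.828). It did not follow accessory gland (r = 0.0339) or flight muscle (r = -0.117) markers. Of the 24 paralogs, 19 had r of at least 0.5 with the late testis markers. The mean of the other subunit genes followed flight muscle markers, with r = 0.646 in females and 0.598 in males, and not the late testis markers, with r = -0.0638. These markers summed to 1539 FPKM in the median female library and 3321 FPKM in the median male library. Their part in the line differences of the members was not tested.

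Lines at the extremes had marker levels that went with the set in some cases and not in others. In females, line 820 was highest for 31 of the 62 other subunit genes, at 0.55 above the mean of lines over the set (0.34 and 0.76 in its replicates), and its muscle markers were 0.80 above. Line 129 was 0.40 below, with muscle markers 0.94 below, whereas line 361, 0.41 below, had muscle markers only 0.05 below. The SD of the set over lines was 0.16 in females and 0.19 in males. In males, lines 908 (+0.44) and 75 (+0.41) were highest and line 332 (-0.41) lowest. Among the paralogs, line 325 was lowest for 13 of 24, at -1.28 for the set against an SD over lines of 0.27. Part of that set value comes from ND-20L, which was near its floor in this line. Late testis markers there were at -1.39 and meiotic arrest genes at -0.15. Line 589, at -0.55, had late testis markers at -0.06 and meiotic arrest genes at -0.52, and in males of line 45 late testis markers were at -1.20 with the paralogs at +0.06. Line 802 was highest at +0.60. Without line 325 the correlation of the set with late testis markers was 0.801.

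Beside the genes of similar function, the other subunit genes were close to the citric acid cycle genes (r of the means 0.877 in females and 0.855 in males) and to the pathway genes under other symbols (0.923 and 0.956). The paralogs were close to Cyt-c-d, Cyt-c1L and Ant2 (0.927 in males).

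On the deposited scale, a sex difference that varied between lines was called for a smaller share of the members than of all features. The line-by-sex interaction was called for 8 of 62 other subunit genes and 2 of 4 paralogs tested, where 75.9% of all 10501 features tested were called. ND-B8 had by far the largest interaction variance among the other subunit genes, 0.295 log2 squared (adjusted p = 3.54e-25), of which 0.115 was left without line 627. SdhA, SdhB, ND-49, ND-51, ND-B17.2, UQCR-14 and ATPsynE had between 0.00437 and 0.0065. The paralogs called were UQCR-11L (0.0797) and COX5BL (0.0352). The count for other subunit genes depended on the processing. It was 29 after centring of the libraries and 16 after removal of the level of RpL39, a short ribosomal protein transcript whose level differs between libraries. The 75.9% is for the deposited scale, and the share of all features after these steps is not given here.

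The line means of the other subunit genes were positively correlated between females and males. For 54 called in both, the cross-sex correlation (covariance of line means over the root of the line variances) had a median of 1.00, against 0.671 for 8939 features. As an estimate with error it can pass 1, as it did for 28 of the 54. ND-51 (0.786) and SdhB (0.787) had the lowest values, and UQCR-11L, with 0.0999, was far below them. The plain correlation of line means had a median of 0.527. Between single libraries it was 0.418 to 0.458 for the same replicate number, against 0.320 to 0.345 for all features, and 0.313 for different numbers, against 0.296. The median of 1.00 is from means over same-numbered libraries, and the part in it of deviations that those share was not tested.

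Variant density, a score deposited by the authors on a log2 scale per gene and line, was related to level for some members. How the score was made is not given in the sources used here. Lines above its floor were taken as lines with a variant. In females 2 of 60 other subunit genes tested had a negative and 7 a positive correlation, where 11.4% and 8.05% of all features did. In males the counts were 3 and 9 of 60, against 15.2% and 9.72%. Of the 24 paralogs 6 were negative and 0 positive in males, and 0 of 4 were called in females. The 8 other subunit genes called in both sexes had the same sign in each.

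ATPsynE had the strongest negative relation, with r = -0.438 in females (adjusted p = 5.3e-09) and -0.479 in males (4.26e-11), with variants in the gene in 79 of 200 lines. ND-B14 had the strongest positive one, 0.379 (1.04e-06) and 0.440 (2.91e-09). UQCR-14L led the paralogs at -0.341 (1.36e-05), followed by SdhAL at -0.282 (0.000548). That of SdhAL rested on line 705: without it r was 0.0534, and rho over all lines was 0.0810. SdhCL (-0.270), ATPsynepsilonL (-0.257), UQCR-11L (-0.227) and ND-24L (-0.201) completed the paralogs called. UQCR-6.4L was not called at -0.159, but without line 40 its r was -0.315. By Spearman's correlation 3 paralogs were positive and 7 negative in males. The shares of all features given above are for Pearson's r, and those by Spearman's are not given here. ND-30 (0.283 and 0.257), ND-B16.6 (0.196 and 0.271), ND-B12 (0.190 and 0.229), COX7A (0.186 and 0.199) and UQCR-Q (0.198 and 0.228) were positive in females and males, and ND-B14.7 (-0.293 and -0.200) was negative in both. UQCR-Q turned to -0.119 and -0.176 over lines with at least 1 variant. Reads with variants can fail to align to the reference, and the part of that in these correlations was not tested.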

How the data were processed

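Per the labels' protocols, 2 pools of flies per line and sex were sequenced as stranded total RNA with single reads of 125 bp. The authors deposited log2 FPKM per gene and library. The lowest value is the log2 of a pseudocount of 0.001 FPKM. The submitters' processing notes name BDGP5/dm3, BWA 0.7.10, STAR 2.4.0e, Cufflinks 2.2.1, HTSeq, cutadapt and edgeR, with no role or order. The authors also deposited log2 line means per sex, and a score per gene and line, log2 variant density, whose making is not given in the sources used here. Depth was read from low values: over 8537 features, 99.8% of values under 20 reads were whole within 0.05 reads.

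Symbols, arms and exons came by identifier from the Ensembl annotation of BDGP6.54, release 115, and RefSeq synonyms, and no coordinates are given. Features entered a test where their mean reached 0 on the log2 FPKM scale in either sex (sex difference), in the sex (line variation, density) or in both (interaction). Tests used limma 3.58.1 in R 4.3.3 on line differences, or F tests against the replicate mean square moderated by limma, and Pearson's r for density, with Benjamini-Hochberg adjustment over all features, computed with numpy 2.4.6, pandas 2.3.3 and scipy 1.17.1 under Python 3.11.15. Tests were two-sided apart from the F tests. The tests were checked on simulated data. Labels give separate pools as replicates.

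Members named are all paralogs, their counterparts, the Sdh genes, and per complex or measure the extremes. Named beside these, after their values were seen, were paralogs with a line apart and genes called for density. Members and lists were chosen with earlier results of these data known. Marker and pathway symbols not matched were nos, vas, dec-1, wupA, Cyt-c-p, knon, Fum1 and Nc73EF. Mitochondrial genome genes, protein identity and promoter motifs were not analysed here.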

Additional observations from a re-analysis of the deposited data

Results flagged for a closer look

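For 10 members the sex difference itself varied between lines, tested as the line-by-sex interaction against the spread between replicate libraries (F test moderated by limma, Benjamini-Hochberg over 10501 features). ND-B8 had an interaction variance of 0.295 log2 squared (adjusted p = 3.54e-25), and UQCR-11L of 0.0797 (5.15e-24). COX5BL had 0.0352 (0.00404). The complex I subunits ND-49, ND-51 and ND-B17.2 had 0.00569 (0.001), 0.00512 (0.0149) and 0.00453 (0.0189). SdhA and SdhB had 0.00437 (0.00179) and 0.0065 (0.0238), UQCR-14 had 0.00483 (0.0326) and ATPsynE had 0.00647 (0.00318). ND-B8 had 0.115 without line 627 and 0.0265 with a pseudocount of 1 FPKM. All 10 were also called with a pseudocount of 1 FPKM, after centring of the libraries, after removal of RpL39 and with the replicate block, 8 of 10 with no filter on low values, and 9 of 10 without lines 31, 45 and 492. COX5BL and UQCR-14 lie with all their exon bases opposite another gene, Trmt6 and CG32576.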

How the results depend on the processing

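Of the sex differences, 23 paralogs were called under every alternative run except replicate 2 alone, which added COX7AL2 (range 23 to 24), and of the other subunit genes 1 was called except with a minimum of 2 log2 units (0) and with replicate 2 alone (2, with SdhB). Over all features, no filter gave 13949 male-higher and 4935 female-higher calls, and the minimum of 2 units gave 3274 and 1237. Centring of the libraries on their medians left 49 of the 62 other subunit genes on the female side, where 58 had been on the male side, and of the genes named, counterparts included, it turned 23: ATPsynbeta 0.34, ATPsynG 0.19, sun 0.54, cype 0.10, ATPsynCF6 0.27, ATPsynB 0.10, ND-42 0.0757, ND-B14.5A 0.19, ND-20 0.12, UQCR-14 0.0507, ND-18 0.15, ND-15 0.25, COX5B 0.18, COX4 0.0383, ND-B14 0.10, ND-B15 0.21, UQCR-6.4 0.23, levy 0.11, SdhC 0.0054, ATPsynE 0.24, ND-49 0.0573, COX7C 0.17 and UQCR-11 0.48. Between single replicates ATPsyndelta ranged from -0.0490 to 0.0908, sun from -0.12 to 0.11 and UQCR-11 from -0.17 to 0.0431.

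Replicate numbers were not taken to pair the libraries, since not every line passed 0.1: deviations of same-numbered female and male libraries of a line correlated from -0.229 to 0.406 (median 0.0544, over 0.1 in 59 of 200 lines). With the replicate block, the sex difference counts were as before, the median heritability of other subunit genes was 0.433 in females and 0.411 in males (all features 0.597 and 0.548), so the male excess of the deposited scale was gone, and the interaction was called for 29 of them, as many as after centring (29) and more than after removal of RpL39 (16). The share of all features called for the interaction under these settings is not given here. Centring gave median heritabilities of 0.412 in females and 0.470 in males, and 0.561 for all features in males. No filter gave 17437 features and 8 paralogs called for line variation in females, 22050 features in males, and 13735 features and 9 paralogs for the interaction. Leaving out a replicate leaves no error term for line variation and interaction, and was not run.

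The median cross-sex correlation of other subunit genes was 0.857 after centring, 0.915 after removal of RpL39, 0.418 to 0.458 with single replicates (all features 0.320 to 0.345), 0.527 as a plain correlation (0.412) and 0.313 with replicates crossed (0.296). UQCR-11L gave -0.0196 to 0.155 with single replicates. For variant density in females, Spearman's correlation gave 2 negative paralogs and 7 negative other subunit genes, lines with variants only gave 5 negative, removal of RpL39 gave 1 and 4, and leaving out lines 31, 45 and 492 gave 1 negative paralog and 4 positive others. Single replicates gave 0 to 1 negative paralogs and 3 to 4 positive others in females, and 5 to 6 positive others in males. In males Spearman's gave 3 positive paralogs and 9 negative others, and lines with variants only 1 and 7. The shares of all features called for density under these settings are not given here, so these counts only describe the members. Over lines with variants only, ND-18 (-0.0653) and UQCR-Q (-0.119) in females and SdhB (-0.0389) and UQCR-Q (-0.176) in males were negative, and SdhAL was 0.0810 by Spearman's. Median correlations between other subunit genes after centring were 0.733 in females and 0.639 in males, and between paralogs and others -0.107. Among paralogs the median was 0.607 with a pseudocount of 1 FPKM, 0.672 by Spearman's and 0.540 to 0.555 with single replicates. The cause of these changes was not tested.

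The authors' deposited line means equal the library means on average but showed almost no correlation with variant density (highest absolute r 0.0578 in females and 0.0463 in males over all features), so they were not used for it. They were also incomplete, with 6 of 24 paralogs in females. At the depth used, 20 of the 24 paralogs were under the expression filter in females and did not enter the tests of line variation there. The SE and p-values cover these 200 lines.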
